A study of Bos grunniens with 18 samples.

Results

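The 162 genes described here are annotated to protein processing in the endoplasmic reticulum (ER), out of 20607 genes listed for the blood of female yaks (Bos grunniens). They were chosen by annotation and detection. The deposited table lists the KEGG pathway of that name for 202 genes. Of these, 27 also carry the pathway of ubiquitin-mediated proteolysis and were left out. The remaining 175 lost 5 genes that did not reach 10 counts in at least 6 libraries, and 8 genes that the rule leaves out by name (HSPA5, HSPA8, HSPH1, HSP90AA1, DNAJB1, BCL2, BAX and BAK1). Of these 8, 6 carry their symbol in the table, 1 unnamed gene was taken as HSP90AA1 from its description, and 1 as DNAJB1 from its KEGG orthology entry. Of the 162 genes, 129 carry a symbol and 33 only an Ensembl identifier, for which the gene of the KEGG orthology entry is given. The annotation calls 155 of them protein coding, 6 pseudogenes and 1 a long non-coding RNA. The label was checked against the functions of the symbols: 14 of the 162 carry the symbol of a gene with another known function (for example ATAD2 and ZBED5), and these were kept as the rule gives them but described as a group of their own.

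Whole blood was sequenced in 18 libraries, 6 each from anestrus (the Y-A group), estrus (the Y-E group) and pregnancy (the Y-P group). All animals were adult females of 4 to 8 years, and per the study's methods blood was tracked through the stages in cows that were in their second year of calving. Those methods synchronised estrus with a progesterone pessary, PGF2α and GnRH, followed by timed artificial insemination. Whether a given anestrus sample preceded these hormones is not given in the sources used here. The blood was mixed with TRIzol LS in EDTA tubes and was not sorted, so each library is a mixture of white cells, platelets and young red cells that still hold RNA, and fewer cells of a type and less RNA per cell cannot be told apart.

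Proteins that are secreted, or that sit in membranes, enter the ER through the SEC61 channel, receive N-linked sugars from the oligosaccharyltransferase, and are folded by chaperones, lectins and disulfide isomerases. Correctly folded proteins leave in COPII-coated vesicles. Misfolded ones are pulled back into the cytosol and degraded, a route called ER-associated degradation. When folding falls behind, the sensors IRE1 (gene ERN1), PERK (gene EIF2AK3) and ATF6 start the unfolded protein response, which slows translation and raises the folding and degradation machinery. In blood this machinery is best known from antibody-secreting plasma cells, in which XBP1 is required for secretion, and from neutrophils and platelets, which carry stores of secreted protein.

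Total counts ran from 30247267 to 48401076 per library. Levels are given as CPM after TMM normalisation where a gene was compared between stages, and as deposited FPKM, which is scaled by gene length, where genes were compared with each other. At these depths 3 counts, the most that an observed 0 allows, correspond to 0.0620 to 0.0992 CPM, a limit that covers counting error only. Y-E replicate 6 stands apart. The 6 hemoglobin complex genes took 8.36% of its counts, against 0.0899% to 0.713% in the other Y-E libraries, 3.10% to 16.7% in Y-A and 0.0272% to 0.376% in Y-P. Among 162 genes it held the highest Y-E value of 61 and the lowest of 26. Libraries of the other stages were often extreme too. Y-P replicate 2 held the highest Y-P value of 27 and the lowest of 56, and Y-A replicate 6 the highest Y-A value of 50 and the lowest of 31. The counts over all 162 genes, and those by role where they differ, are given with and without Y-E replicate 6.

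The machinery was well expressed in all 18 libraries. The median of the 162 mean FPKM values was 21.3, against 7.78 over the 14508 genes tested. Of the 162 genes, 10 lay at 100 FPKM or more, 107 from 10 to 100, 31 from 1 to 10, and 14 under 1. The highest was the unnamed gene ENSBGRG00000003347, whose orthology entry is that of ATF4, the transcription factor translated when PERK is active, at 316 ± 41.4 FPKM (SD, n = 18). It was followed by SSR2, a subunit of the translocon-associated complex, at 287 ± 64.1 FPKM, by the lectin chaperone CALR (calreticulin) at 257 ± 45.5 FPKM and by the disulfide isomerase PDIA3 at 247 ± 32.4 FPKM. The cytosolic chaperone HSP90AB1 stood at 209.5 ± 54.3 FPKM, OS9, which recognises sugars on proteins due for degradation, at 181 ± 18.2 FPKM, and HSP90B1, the HSP90 of the ER, at 163 ± 38.04 FPKM. P4HB, which encodes protein disulfide isomerase, lay at 119.9 ± 11.2 FPKM, CANX (calnexin, the membrane-bound partner of calreticulin) at 106 ± 18.2 FPKM, and ENSBGRG00000000383, with the entry of the channel subunit SEC61B, at 101.1 ± 21.5 FPKM. The 10 genes with the most counts took 30.5% of all counts of the 162, led by HSP90AB1 with 5.18% and PDIA3 with 4.64%.

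**Figure D1:**
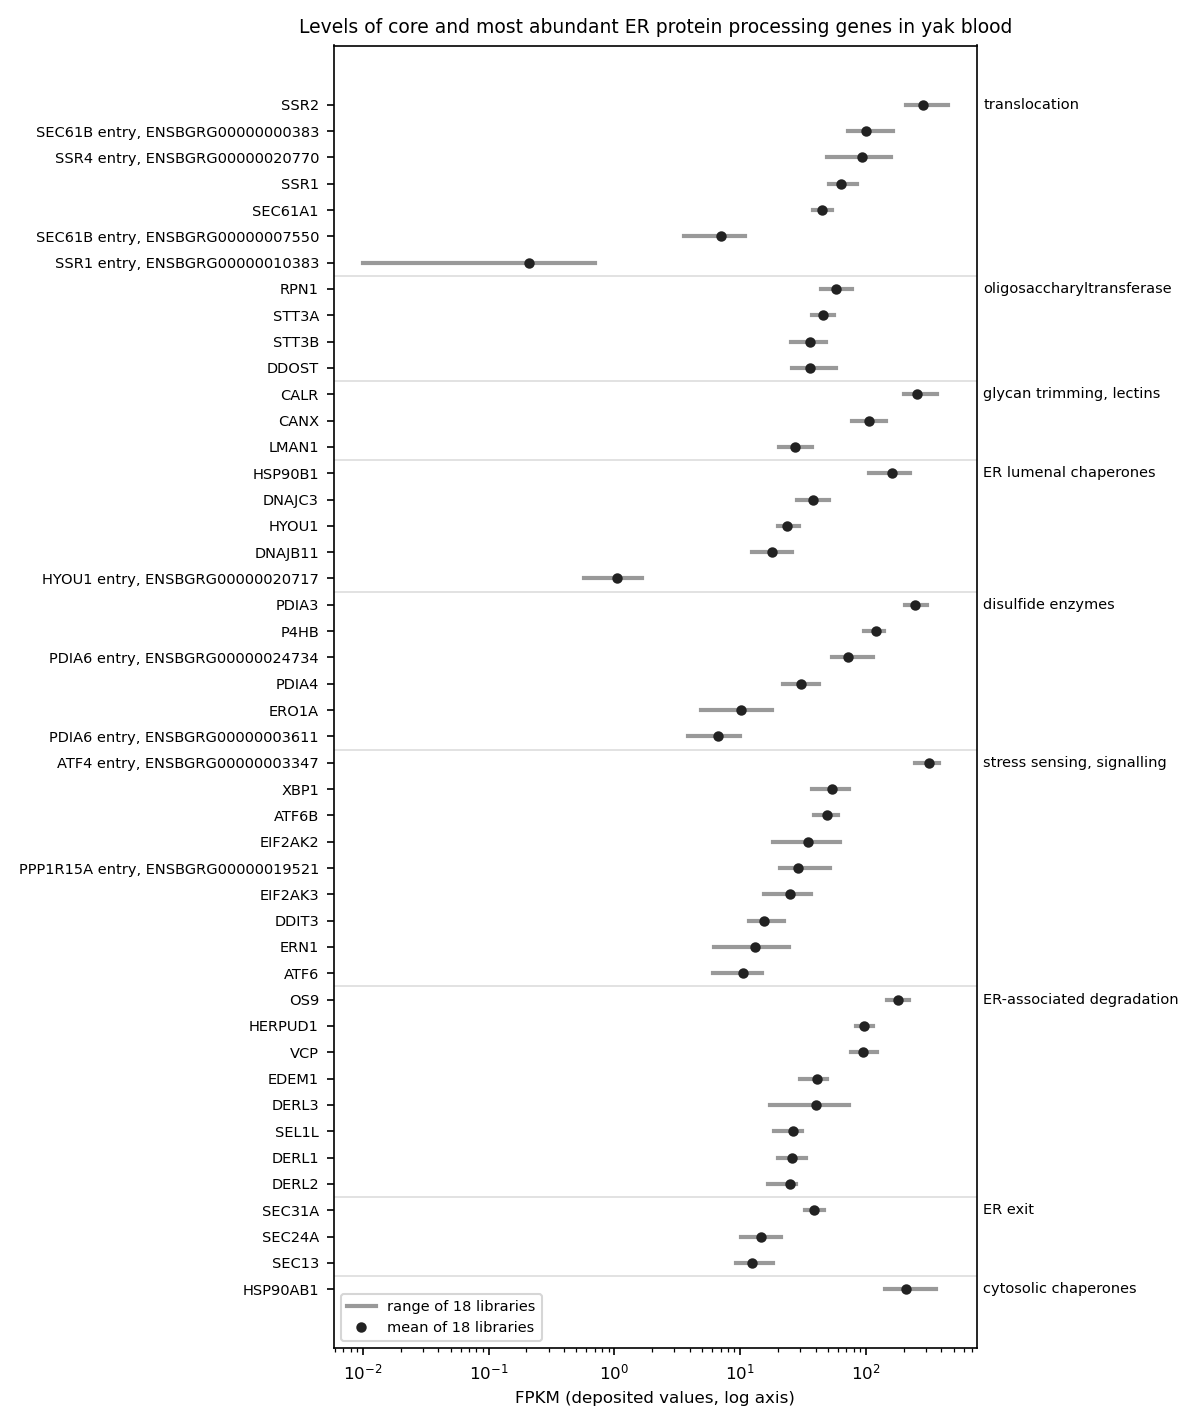
Deposited FPKM (log axis) of the core pathway genes and the 10 most abundant of the 162, grouped by role; points are means and bars the range over all 18 libraries, with 0.01 as the lowest value drawn. SSR2, CALR, PDIA3 and the unnamed gene with the ATF4 entry lie above 200 FPKM on average, while the sensors ERN1 (13.1 FPKM) and ATF6 (10.7 FPKM) lie far lower.

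By role, the 6 oligosaccharyltransferase genes had the highest median (51.9 FPKM, from DDOST at 36.1 to DAD1 at 84.25), followed by the 17 translocation genes (37.0 FPKM). The 10 disulfide enzymes (26.0 FPKM), the 34 genes of ER-associated degradation (24.9 FPKM) and the 14 genes of glycan trimming and lectins (22.3 FPKM) came next. The 8 lumenal chaperones (20.8 FPKM), the 25 genes of stress sensing and signalling (20.2 FPKM) and the 13 of ER exit (19.6 FPKM) lay close together. The 21 cytosolic chaperones reached only 10.8 FPKM at the median, with a range from 0.188 FPKM for HSPA4L to HSP90AB1, and the 14 genes with other symbols 5.29 FPKM.

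These genes also varied little between animals. Their within-stage SD on the log2 CPM scale had a median of 0.246, against 0.335 for all tested genes. The 2 sets were not matched for level, and the 162 were more abundant (median 21.3 FPKM, against 7.78 FPKM). The steadiest of the 156 with at least 1 CPM on average were ENSBGRG00000012166, with the entry of the COPII coat gene SEC24 (0.0753), and NPLOC4, a cofactor of the unfoldase VCP (0.0771). VCP itself, which pulls proteins out of the membrane, had an SD of 0.104 and SEL1L, the scaffold of the main degradation ligase, 0.113. At the other end were cytosolic heat shock genes, among them HSPA6 with 0.791. DERL3, a channel component of degradation that is abundant in secretory cells, had 0.573 and EIF2AK2, the interferon-induced kinase PKR, 0.517. The genes of this paragraph were picked after their values were seen.

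The first comparison asked which of the genes differ between estrus and anestrus. None of the 162 was called in Y-E vs. Y-A, with edgeR's quasi-likelihood test at an adjusted p under 0.05 over all 14508 genes tested, and the smallest adjusted p was 0.576. Of all genes, 0% were called higher and 0.0207% lower in this comparison. At an unadjusted p under 0.05 there was 1 higher gene, ENSBGRG00000026178 with the entry of the protease CAPN1 (log2 fold change 0.30), and 2 lower ones, DNAJB2 (−0.38) and ENSBGRG00000013178 with the entry of DNAJA1 (−0.65), all 3 named after their values were seen. These are 0.617% and 1.23% of the 162, beside 4.37% and 1.83% of all tested genes. DESeq2 and the fit with a replicate block also called 0, as did the fit without Y-E replicate 6, where 4 higher and 7 lower genes passed the unadjusted threshold (2.47% and 4.32%, beside 5.06% and 3.36% of all genes). The median log2 fold change of the 162 was −0.05, close to that of all tested genes (−0.01). All 43 genes of the core list fell short of the test. For PDIA3 the log2 fold change was 0.10 ± 0.10 (SE) and for CALR −0.06 ± 0.13.

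The second comparison set pregnancy against anestrus. In Y-P vs. Y-A 1 of the 162 genes was higher and 5 were lower, that is 0.617% and 3.09%, while 2.22% and 3.61% of all tested genes were called. With the fold threshold of the study added (at least 1 on the log2 scale, up or down), 0 were higher and 2 lower, against 0.345% and 1.09% of all genes, and 0 and 1 without Y-E replicate 6. Without Y-E replicate 6, which is in neither of these groups but shares the estimate of the spread, the counts were 1 and 4. With the replicate number as a block they were 1 and 8, the added genes being the stress regulators NFE2L2 and ATF6 and the translocation gene SEC62. Of all tested genes, 330 were higher and 558 lower without Y-E replicate 6, and 481 and 801 with the block. With neither change they were 322 and 524.

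The third comparison set pregnancy against estrus. In Y-P vs. Y-E 7 genes were higher and 8 lower, 4.32% and 4.94% of the 162, beside 5.77% and 8.68% of all tested genes. At the fold threshold 0 were higher and 2 lower, with 0.448% and 2.22% of all genes, and without Y-E replicate 6 they were again 0 and 2. The counts were 9 and 7 without Y-E replicate 6, and 9 and 9 with the replicate block. Of all tested genes, 830 were higher and 1177 lower without Y-E replicate 6, and 1047 and 1561 with the block. With neither change they were 837 and 1259. Since both pregnancy comparisons share the Y-P libraries, a gene called in both is not 2 independent results. Of the 43 core genes, 0 were higher and 2 lower (EDEM1 and SEL1L) in Y-P vs. Y-A, and 2 were higher (RPN1 and DDOST) and 2 lower (ERN1 and SEL1L) in Y-P vs. Y-E. Without Y-E replicate 6 the core counts were 0 and 2, and 2 and 1, as ERN1 lost its call.

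The split between higher and lower depended on the scaling. The members' median log2 fold change was −0.01 in Y-P vs. Y-A and 0.03 in Y-P vs. Y-E, near those of all tested genes (0.03 and 0.04). When only the library size was used, the median of all tested genes shifted to 0.19 and 0.18, the calls became 10 higher and 2 lower in Y-P vs. Y-A, and 26 higher and 4 lower in Y-P vs. Y-E. All tested genes were then called higher and lower at 7.41% and 1.78% in the former and 12.4% and 5.22% in the latter, and the 162 at 6.17% and 1.23%, and 16.0% and 2.47%. On the deposited FPKM, tested with limma on log2(FPKM + 1), they were 19 and 2, and 32 and 4, with all-gene medians of 0.15 and 0.14. There 13% and 1.56%, and 16.5% and 4.61%, of all genes were called, beside 11.7% and 1.23%, and 19.8% and 2.47%, of the 162. Each of the 162 genes moved up by 0.12 to 0.23 on the log2 scale from TMM to library size only. With TMM, 75 of the 162 log2 fold changes were above 0 in Y-P vs. Y-A and 95 in Y-P vs. Y-E. The summed level of the 162 was 12920 to 14630 CPM in Y-A, 12810 to 14640 in Y-E and 12990 to 14970 in Y-P, whereas their share of the raw counts was 1.40% to 1.53% in Y-P, above the 1.23% to 1.37% of every Y-E library. Outside the hemoglobin genes the shares overlapped, at 1.40% to 1.51% in Y-A, 1.24% to 1.49% in Y-E and 1.40% to 1.54% in Y-P. The overlap of Y-E came from its replicate 6, without which Y-E lay at 1.24% to 1.37%, below every Y-A and every Y-P library.

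**Figure D2:**
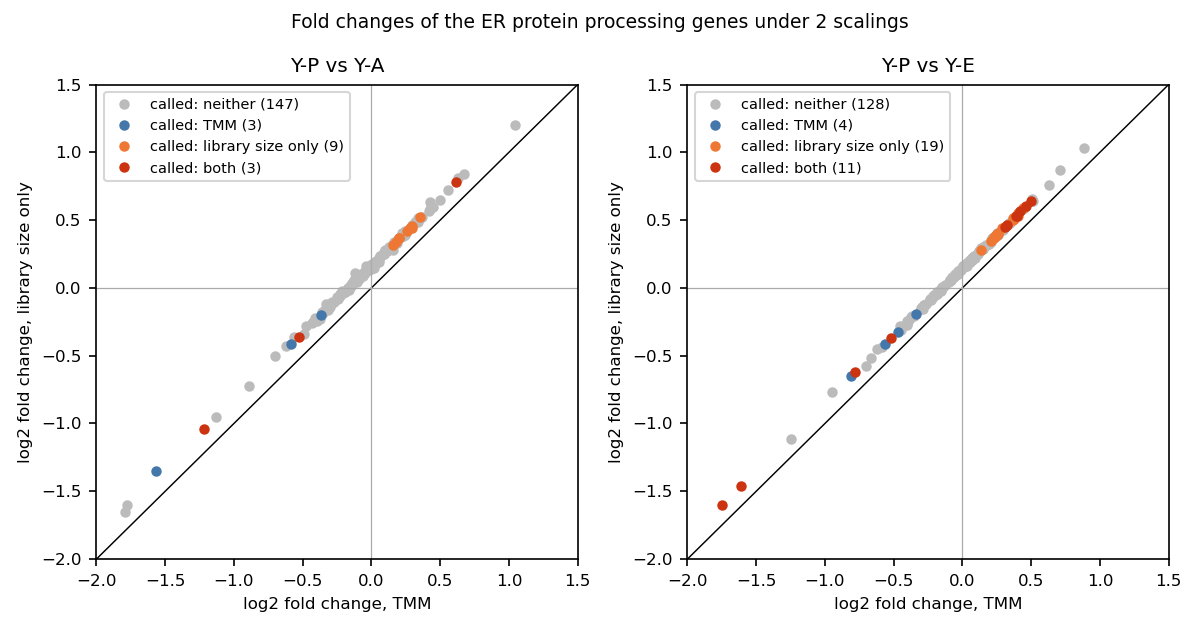
Log2 fold changes of the 162 genes in Y-P vs. Y-A (left) and Y-P vs. Y-E (right) with TMM (x axis) and with library size only (y axis); the diagonal marks equal values and colours mark where a gene was called. All points lie above the diagonal; 3 genes were called under both scalings on the left and 11 on the right.

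**Figure D3:**
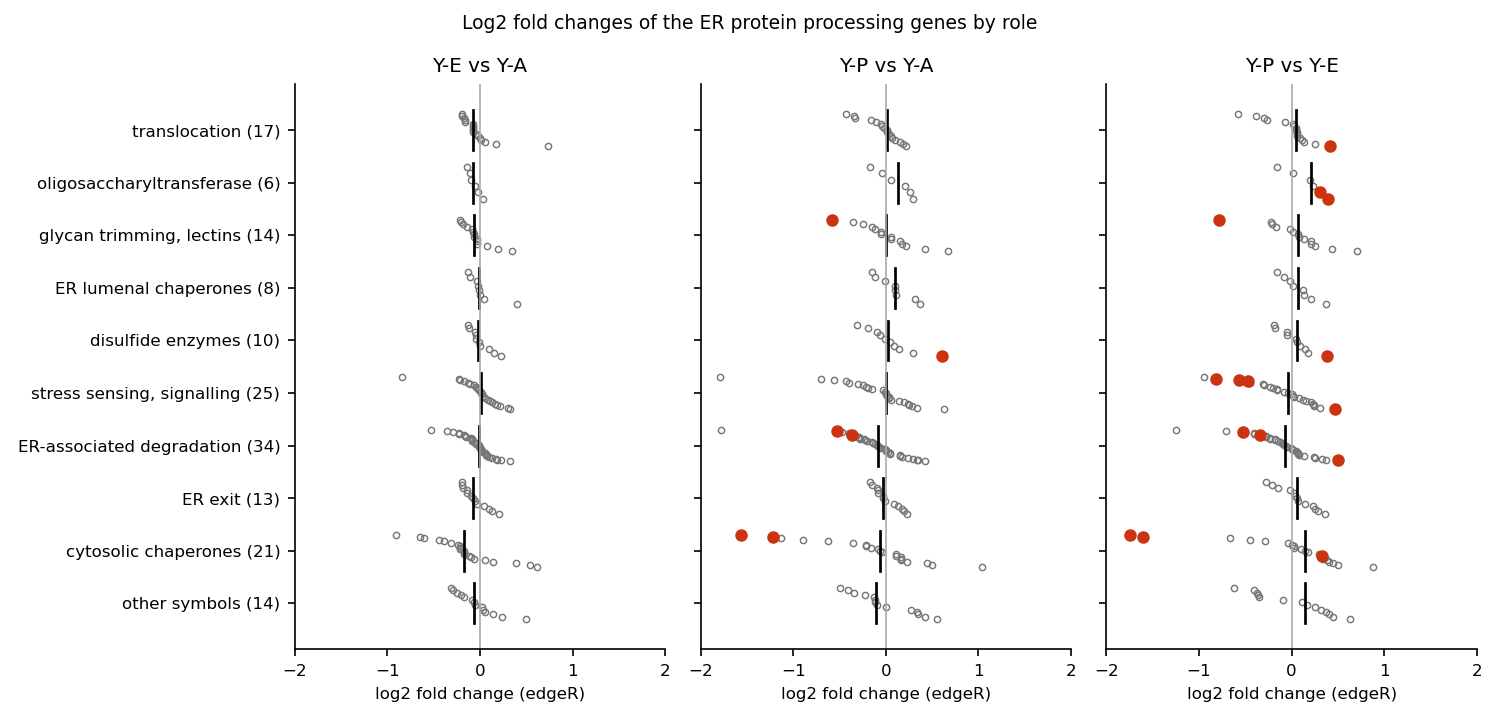
Log2 fold changes (edgeR, TMM) of the 162 genes by role in the 3 comparisons; each point is a gene, filled red points are called at an adjusted p under 0.05, and vertical lines are role medians. No gene is called in Y-E vs. Y-A, 6 are in Y-P vs. Y-A and 15 in Y-P vs. Y-E, and role medians stay within 0.22 of 0.

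Along the path of a new protein, entry into the ER comes first. Of the 17 translocation genes 0 were called in Y-P vs. Y-A, and 1 was higher in Y-P vs. Y-E. This was SEC61A2, the less abundant of the 2 listed genes for the channel-forming subunit (8.23 FPKM, against 44.9 FPKM for SEC61A1), on chromosome 12 from 924586 to 948742. Its level was 24.98 to 30.7 CPM in Y-E (median 27.7) and 31.7 to 40.9 CPM in Y-P (median 37.6), so that every Y-P library lay above every Y-E library, while Y-A overlapped both at 26.5 to 37.9 CPM. The log2 fold change in Y-P vs. Y-E was 0.42 ± 0.12 (edgeR adjusted p = 0.0204). Of the 18 fits that left out 1 library, it lost its call in 1, without Y-E replicate 5 (adjusted p = 0.0521). The gene overlaps NUDT5 on the opposite strand, and whether the counting used strand is not stated. SEC61A1 was at a log2 fold change of 0.02 ± 0.10 in the same comparison (adjusted p = 0.922), and SSR2 and SSR1 at 0.26 ± 0.16 and 0.06 ± 0.11.

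The oligosaccharyltransferase, which moves the sugar onto the entering chain, gave 0 calls among its 6 genes in Y-P vs. Y-A and 2 higher ones in Y-P vs. Y-E. DDOST, a structural subunit on chromosome 2 from 4809446 to 4826041, lay at 84.0 to 95.1 CPM in Y-E (median 86.7) and 88.8 to 146 CPM in Y-P (median 115), with Y-A at 77.5 to 105 CPM. The Y-P libraries split: replicates 2, 3 and 5 reached 131.6 CPM or more and the other 3 stayed at 88.8 to 99.1 CPM, within or just above the Y-E range. Replicates 2, 3 and 5 were also the deepest Y-P libraries, at 40359672 to 48401076 counts, with the others at 30343748 to 33993445. The change was 0.39 ± 0.12 (adjusted p = 0.0333). RPN1, a further subunit, rose from 142 to 172 CPM in Y-E (median 149.7) to 155 to 215 CPM in Y-P (median 190.2), with Y-A at 140.9 to 200.1 CPM, by 0.31 ± 0.10 (adjusted p = 0.0464). Both were higher in Y-P in 6 of 6 same-numbered pairs of libraries. DDOST was called in 11 of the 18 leave-one-out fits and was lost without Y-A replicate 1, Y-E replicates 1, 2 and 5, or Y-P replicates 2, 3 and 5 (adjusted p up to 0.0840). RPN1 was called in 5 of 18, namely without Y-A replicates 5 and 6, Y-E replicate 6, or Y-P replicates 1 and 4, and otherwise reached an adjusted p of up to 0.0953. DDOST overlaps PINK1 on the opposite strand. The catalytic subunits STT3A and STT3B changed by 0.01 ± 0.09 and −0.15 ± 0.12 and were not called. With library size only, DDOST, RPN1 and the subunit gene RPN2 were called higher in Y-P vs. Y-A (adjusted p = 0.0316, 0.0197 and 0.0121). Of the genes called higher in Y-P vs. Y-E, RPN1, DNAJA2 and SELENOS also had their highest Y-P values in replicates 2, 3 and 5. SEC61A2 and the genes with the TXNDC5 and EIF2S1 entries did not. Of those called lower, SEL1L, MAN1A2 and MARCHF6 had their lowest Y-P values there, and the others did not. The part of depth was not tested.

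Among the 14 genes of glycan trimming and lectins, 1 was lower in both pregnancy comparisons. MAN1A2, a mannosidase that trims the sugar after folding (chromosome 3, 47504404 to 47667284), had 65.2 to 95.1 CPM in Y-A (median 85.0), 75.6 to 114 CPM in Y-E (median 97.9) and 41.1 to 75.3 CPM in Y-P (median 52.9). The highest Y-P library, replicate 1, lay just under the lowest Y-E library, and in Y-A the lowest library fell within the Y-P range. The log2 fold change was −0.58 ± 0.16 in Y-P vs. Y-A (adjusted p = 0.0354) and −0.78 ± 0.16 in Y-P vs. Y-E (adjusted p = 0.00324). Against Y-E it was called in all 18 leave-one-out fits and with library size only (−0.62), while against Y-A it was called in 10 of 18 (lost without Y-A replicates 2 to 5 or Y-P replicates 2 to 5, adjusted p up to 0.0756) and not with library size only (−0.42, adjusted p = 0.111). It overlaps an unnamed gene on the opposite strand. CALR and CANX, which hold glycoproteins while they fold, were not called. CALR was at 304 to 545 CPM in Y-P, a wider range than the 319 to 398 CPM of Y-E, and changed by 0.21 ± 0.13 (adjusted p = 0.297). With library size only CALR was called higher in Y-P vs. Y-E (0.35, adjusted p = 0.0486). CANX changed by 0.01 ± 0.12 (adjusted p = 0.969).

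Of the 8 lumenal chaperones 0 were called by edgeR in any comparison with all 18 libraries. Without Y-E replicate 6, DNAJC10 was called higher in Y-P vs. Y-E. HSP90B1 ran from 381 to 543 CPM in Y-A, 332 to 607 CPM in Y-E, where replicate 6 was the highest, and 350.1 to 539.9 CPM in Y-P. Its change in Y-P vs. Y-E was 0.13 ± 0.15 (adjusted p = 0.614). HYOU1, an HSP70-related exchange factor, changed by −0.02 ± 0.10, and the co-chaperones DNAJB11 and DNAJC3 by 0.21 ± 0.13 and 0.01 ± 0.13.

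Of the 10 disulfide enzymes 1 was called, and it rose in both pregnancy comparisons. ENSBGRG00000016429 lies on chromosome 24 from 51970459 to 52002199, and its orthology entry is that of TXNDC5, a thioredoxin-domain protein of the ER that is abundant in plasma cells. Its level was 78.0 to 92.8 CPM in Y-A (median 81.9), 72.2 to 123 CPM in Y-E (median 95.7) and 107.9 to 159.6 CPM in Y-P (median 129.8). All Y-P libraries lay above all Y-A libraries, and each lay above the Y-E library of the same number. The change was 0.61 ± 0.12 in Y-P vs. Y-A (adjusted p = 0.00781), called in all 18 leave-one-out fits and under the 9 other settings. In Y-P vs. Y-E it was 0.39 ± 0.12 (adjusted p = 0.0363), and this call was lost in 8 of 18 leave-one-out fits (without Y-E replicates 1, 2, 3 and 6 or Y-P replicates 1, 2, 4 and 5, adjusted p up to 0.0894), among them that without Y-E replicate 6 (adjusted p = 0.0580). It overlaps BMP6 on the opposite strand. The isomerases PDIA3, P4HB and PDIA4, which make most of the disulfide bonds of secreted proteins, changed by −0.05 ± 0.10, −0.18 ± 0.12 and 0.09 ± 0.11 in Y-P vs. Y-E and were not called. ENSBGRG00000024734, with the entry of PDIA6, was at 131 to 233 CPM in Y-P and 136 to 176 CPM in Y-E, and was not called either (0.18 ± 0.12).

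**Figure D4:**
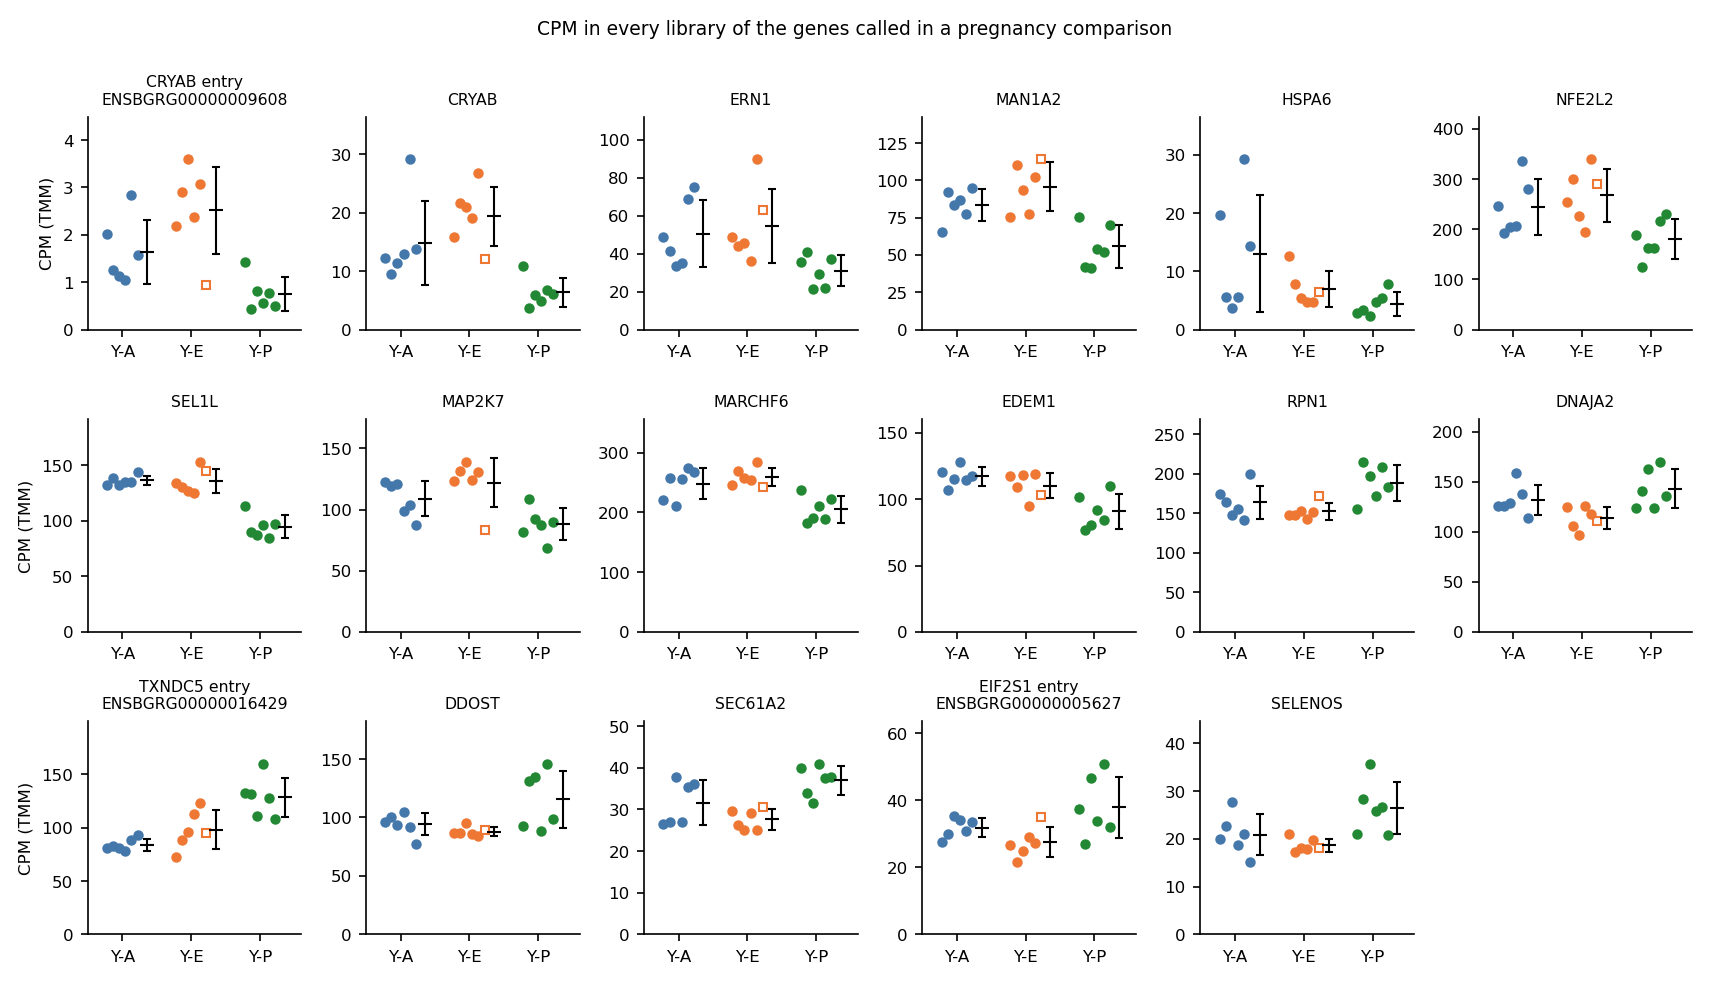
CPM (TMM, axes from 0) in every library of the 17 genes called in a pregnancy comparison, ordered from the most negative to the most positive change in Y-P vs. Y-E; circles are libraries, the open square is Y-E replicate 6, and black bars are mean ± SD (n = 6). SEL1L, MARCHF6, MAN1A2 and CRYAB lie lower in every Y-P than in every Y-E library, and SEC61A2 higher.

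The stress sensors and their signalling partners make up 25 genes, of which 0 were called in Y-P vs. Y-A, and 1 higher and 3 lower in Y-P vs. Y-E. Without Y-E replicate 6 the latter counts were 1 and 2, as ERN1 and NFE2L2 lost their calls. There ENSBGRG00000026178, annotated as a pseudogene with the CAPN1 entry, was newly called lower (−0.37, adjusted p = 0.0258). ERN1, the sensor IRE1 that splices the XBP1 message (chromosome 19, 16957625 to 17045336), was at 33.4 to 75.2 CPM in Y-A (median 45.3), 36.04 to 89.8 CPM in Y-E (median 47.2) and 21.3 to 41.0 CPM in Y-P (median 32.5). It was lower in Y-P in 6 of 6 same-numbered pairs, although the ranges overlapped. The change was −0.81 ± 0.25 in Y-P vs. Y-E (adjusted p = 0.0328) and −0.70 ± 0.245 in Y-P vs. Y-A (adjusted p = 0.0939). The call was lost without Y-E replicate 6 (−0.77, adjusted p = 0.0563), without Y-E replicate 5 or Y-P replicates 3 to 5 (adjusted p up to 0.0996), and with library size only (−0.65, adjusted p = 0.0588). XBP1 was not called with TMM. Its level was 75.4 to 114 CPM in Y-E and 94.9 to 126 CPM in Y-P, with a change of 0.24 ± 0.12 (adjusted p = 0.194). With library size only it was called higher in Y-P vs. Y-E (0.38, adjusted p = 0.0336). The spliced form was not analysed here.

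In the PERK arm 1 gene was called with TMM. EIF2AK3, the sensor, lay at 83.9 to 124.5 CPM in Y-A (median 105), 99.6 to 120.2 CPM in Y-E (median 109) and 102.5 to 150.7 CPM in Y-P (median 129). It was higher in Y-P in 6 of 6 pairs against both stages. With TMM it was not called, with changes of 0.28 ± 0.11 (adjusted p = 0.141) and 0.25 ± 0.11 (adjusted p = 0.144). With library size only it was called higher against both stages (0.44 and 0.39, adjusted p = 0.0342 and 0.0360). ENSBGRG00000005627, with the entry of EIF2S1, the translation factor that PERK phosphorylates, was called higher in Y-P vs. Y-E. It was at 21.7 to 35.1 CPM in Y-E (median 27.0) and 27.0 to 50.8 CPM in Y-P (median 35.6), a change of 0.47 ± 0.15 (adjusted p = 0.0391), and was called in 11 of 18 leave-one-out fits (lost without Y-E replicates 1, 2, 3 and 5 or Y-P replicates 1, 3 and 5, adjusted p up to 0.102). Its Y-A libraries lay at 27.6 to 35.4 CPM. A further gene with the EIF2S1 entry, ENSBGRG00000017741, was not called, at 7.36 to 14.8 CPM in Y-E and 9.37 to 13.9 CPM in Y-P. The factors acting after EIF2S1 were not called. The gene with the ATF4 entry held 374 to 543 CPM in Y-A, 407.1 to 509.7 CPM in Y-E and 328.5 to 559.8 CPM in Y-P, with differences of 0.03 ± 0.13 against Y-A and 0.02 ± 0.13 against Y-E. DDIT3, which encodes the death-promoting factor CHOP, changed by −0.15 ± 0.15 and −0.16 ± 0.15. ENSBGRG00000019521, with the entry of PPP1R15A, whose product reverses the translation block, changed by 0.05 ± 0.19 and −0.04 ± 0.19, with Y-P replicate 2 at 142.5 CPM and the other 5 Y-P libraries at 59.9 to 79.3 CPM.

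ATF6, the third sensor, was at 31.6 to 43.3 CPM in Y-A (median 34.5), 24.6 to 44.5 CPM in Y-E (median 30.9) and 17.9 to 32.9 CPM in Y-P (median 27.9). It was lower in Y-P than in Y-A in 6 of 6 pairs. The change of −0.40 ± 0.16 was not called without the block (adjusted p = 0.133) and was called with it (adjusted p = 0.0492). Its relative ATF6B was at −0.03 ± 0.13 in the same comparison. ATF6 and DDIT3 overlap unnamed genes on the same strand. NFE2L2, the oxidative stress factor NRF2 that PERK can also phosphorylate (chromosome 2, 128624477 to 128664345), was at 193 to 336 CPM in Y-A (median 226), 194.2 to 339.6 CPM in Y-E (median 272) and 123.9 to 230.5 CPM in Y-P (median 176). It was lower in Y-P in 6 of 6 pairs in both comparisons, by −0.43 ± 0.17 against Y-A (adjusted p = 0.133, and 0.0369 with the block) and −0.56 ± 0.17 against Y-E (adjusted p = 0.0329, and 0.0553 without Y-E replicate 6). The call was also lost without Y-E replicates 2 and 5 or Y-P replicates 2 to 4 (adjusted p up to 0.0863) and with library size only (adjusted p = 0.0750). MAP2K7, a kinase that activates JNK (chromosome 8, 17290113 to 17301322), was at 83.2 to 139 CPM in Y-E (median 127) and 68.5 to 109 CPM in Y-P (median 88.7), with Y-A at 87.2 to 122 CPM. It fell by 0.47 on the log2 scale (−0.47 ± 0.13, adjusted p = 0.0209), and without Y-E replicate 6, the lowest Y-E library, by 0.56 (edgeR adjusted p = 0.00417). The call was lost without Y-E replicate 3 (adjusted p = 0.0534) and with library size only (−0.32, adjusted p = 0.131).

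**Figure D5:**
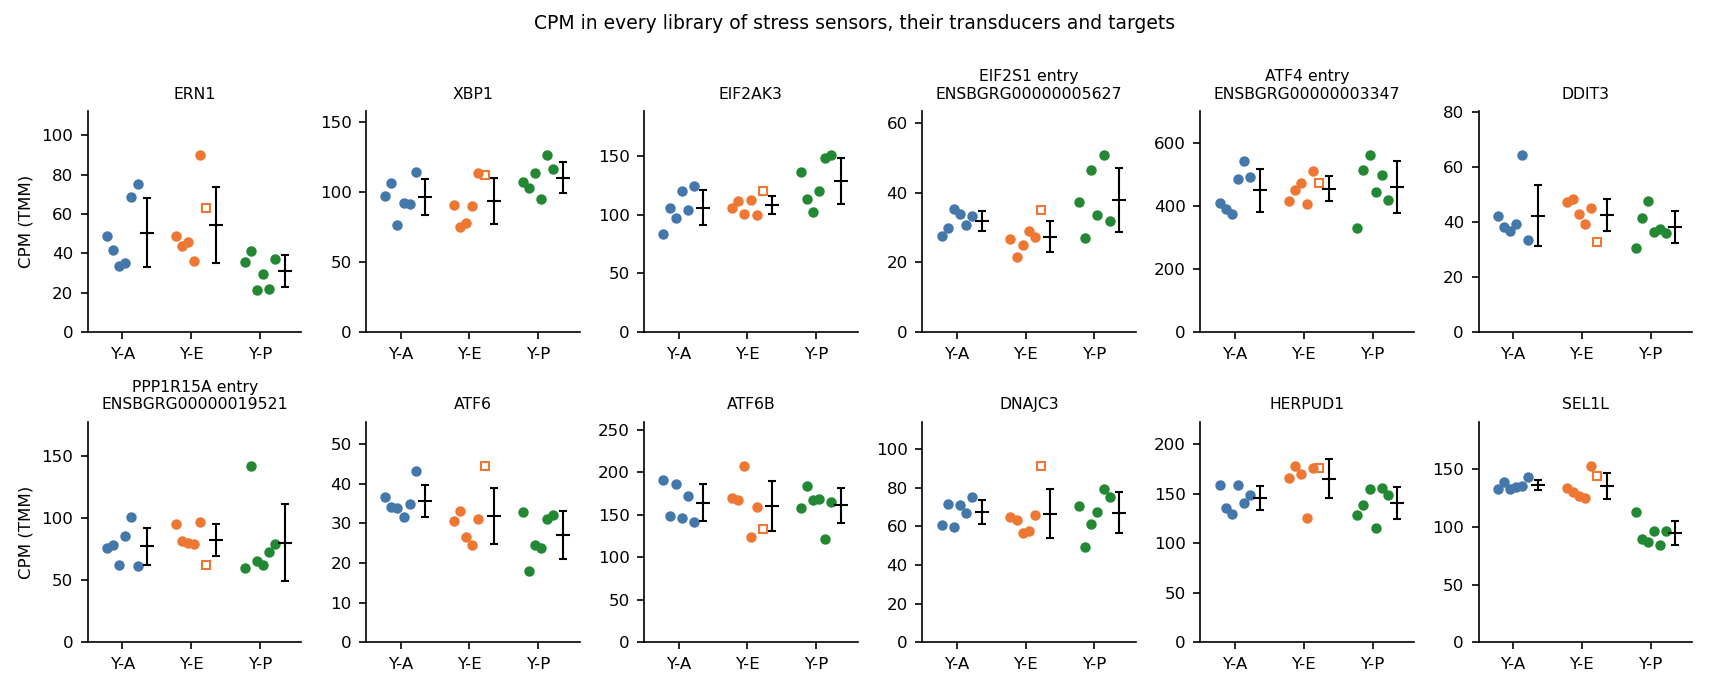
CPM (TMM, axes from 0) in every library of the unfolded protein response sensors, their transducers and 3 genes known as targets (DNAJC3, HERPUD1, SEL1L); symbols as for the called genes, with Y-E replicate 6 as an open square and black bars as mean ± SD (n = 6). SEL1L lies lower in every Y-P library than in every other library, while ERN1, XBP1, DDIT3 and the gene with the ATF4 entry overlap across the stages.

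ER-associated degradation, with 34 genes, gave 0 higher and 2 lower in Y-P vs. Y-A, and 1 higher and 2 lower in Y-P vs. Y-E. The smallest adjusted p of the 162 genes in both comparisons was that of SEL1L, the scaffold that holds the ligase SYVN1 and its substrates together (chromosome 11, 84144940 to 84215086). It was at 132.5 to 143.4 CPM in Y-A (median 135), 124.8 to 153.1 CPM in Y-E (median 132) and 84.1 to 113 CPM in Y-P (median 93.1). Every Y-P library lay below every library of the other stages. The log2 fold change was −0.53 ± 0.08 in Y-P vs. Y-A (adjusted p = 0.00247) and −0.52 ± 0.08 in Y-P vs. Y-E (adjusted p = 0.000800), and both calls held in all 18 leave-one-out fits. With library size only it was −0.36 and −0.37, still called (adjusted p = 0.0345 and 0.0183), and 1 of 9 other settings, limma on log2(FPKM + 0.1), lost the call against Y-A.

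EDEM1, a lectin that leads misfolded glycoproteins to degradation (chromosome 22, 44292518 to 44319961), was at 107 to 128 CPM in Y-A (median 116.5), 95.2 to 119 CPM in Y-E (median 113) and 76.65 to 110.2 CPM in Y-P (median 87.8). It fell by 0.37 on the log2 scale against Y-A (−0.37 ± 0.10, adjusted p = 0.0329), a call that library size only did not give (−0.20, adjusted p = 0.243) and that was lost without Y-A replicates 4 and 5 or Y-P replicates 2 to 5 (adjusted p up to 0.0697). MARCHF6, a membrane-bound ubiquitin ligase (chromosome 23, 17710025 to 17828228), was at 242.4 to 284.8 CPM in Y-E (median 256) and 181.5 to 237.3 CPM in Y-P (median 199.9), so the ranges did not overlap. Y-A, at 210.5 to 274.7 CPM, overlapped both. The change was −0.34 ± 0.09 (adjusted p = 0.0199), and it was not called with library size only (−0.19, adjusted p = 0.232) or without Y-E replicate 5 (adjusted p = 0.0527). It overlaps an unnamed gene on the same strand. SELENOS, a selenoprotein that recruits VCP to the membrane (chromosome 17, 3943764 to 3953438), moved the other way. It was at 17.2 to 21.0 CPM in Y-E (median 18.1) and 20.8 to 35.7 CPM in Y-P (median 26.3), with Y-A at 15.1 to 27.8 CPM, higher in 6 of 6 pairs, by 0.50 ± 0.15 (adjusted p = 0.0273). It was called in 15 of 18 leave-one-out fits and lost without Y-E replicates 2 and 3 or Y-P replicate 3 (adjusted p up to 0.0699).

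The other named genes of this route were not called. VCP changed by 0.16 ± 0.08 and 0.14 ± 0.08, OS9 by −0.08 ± 0.10 and −0.09 ± 0.10, and HERPUD1, which assembles the degradation complex, by −0.05 ± 0.10 and −0.24 ± 0.10, against Y-A and Y-E. With library size only VCP was called higher against both (0.32 and 0.28, adjusted p = 0.0347 and 0.0393). Of the derlins, which form the exit channel, DERL1 changed by 0.04 ± 0.09 and 0.05 ± 0.09 and DERL2 by −0.24 ± 0.10 and −0.23 ± 0.10. DERL3 was spread widely within each stage, at 20.6 to 53.3 CPM in Y-A, 19.3 to 53.4 CPM in Y-E and 28.7 to 80.9 CPM in Y-P. Its change of 0.51 ± 0.29 in Y-P vs. Y-E had an adjusted p of 0.263, and of 0.0317 with the replicate block, and it was higher in Y-P in 5 of 6 pairs.

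Of the 13 genes of ER exit 0 were called by edgeR in any comparison with all 18 libraries, and without Y-E replicate 6 SEC24D was called higher in Y-P vs. Y-E. The COPII coat gene SEC13 had the smallest adjusted p of the 13 with all libraries, at 33.3 to 40.7 CPM in Y-E and 33.7 to 62.25 CPM in Y-P, with a change of 0.36 ± 0.13 (adjusted p = 0.0663). SEC31A, the other part of the outer coat, changed by 0.06 ± 0.08, and SEC24A, which selects cargo, by 0.02 ± 0.14. Summed over the 13 genes the level was 815 to 913 CPM in Y-A, 785 to 869 CPM in Y-E and 795 to 882 CPM in Y-P.

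The cytosolic chaperones, 21 genes that the pathway lists because they assist degradation, held the largest fold changes among the called genes. With all libraries 0 were higher and 2 lower in Y-P vs. Y-A, and 1 higher and 2 lower in Y-P vs. Y-E, and without Y-E replicate 6 the counts were 0 and 1, and 1 and 2. The higher gene was DNAJA2 with all libraries. Without Y-E replicate 6 it was ENSBGRG00000013835, annotated as a pseudogene with an HSP70-type entry (0.47, adjusted p = 0.0275). CRYAB, the small heat shock protein αB-crystallin (chromosome 13, 66213757 to 66218492), was at 9.498 to 29.2 CPM in Y-A (median 12.5), 12.1 to 26.8 CPM in Y-E (median 20.04) and 3.75 to 10.9 CPM in Y-P (median 5.97). The highest Y-A library was replicate 5, and the others lay at 9.498 to 13.8 CPM. The lowest Y-E library was replicate 6. CRYAB was lower in Y-P in 6 of 6 pairs in both comparisons, by −1.22 ± 0.28 against Y-A (adjusted p = 0.0183) and −1.61 ± 0.28 against Y-E (adjusted p = 0.00142). Both calls held in all 18 leave-one-out fits and under the 9 other settings, and without Y-E replicate 6 the change against Y-E was −1.71. ENSBGRG00000009608, which has the same orthology entry, lies inside CRYAB on the same strand (66215021 to 66216058), and a further unnamed gene overlaps CRYAB on that strand too, so that the reads of these genes cannot be told apart with certainty. It held only 18 to 108 counts per library. Its change in Y-P vs. Y-E was −1.75 ± 0.37 (adjusted p = 0.00481), and it is not a second, independent result.

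HSPA6, a strictly heat-inducible HSP70 (chromosome 3, 9546099 to 9549003), was at 3.72 to 29.25 CPM in Y-A (median 9.99), 4.67 to 12.7 CPM in Y-E (median 5.94) and 2.33 to 7.81 CPM in Y-P (median 3.98). In Y-A replicates 1, 5 and 6 stood at 14.4 CPM or more and the other 3 at 3.72 to 5.58 CPM, within the Y-P range. The change in Y-P vs. Y-A was −1.57 ± 0.45 (adjusted p = 0.0460), and the call was lost in 13 of 18 leave-one-out fits (adjusted p up to 0.131), kept only without Y-A replicates 2, 3 and 4, Y-E replicate 1 or Y-P replicate 6, and lost among others without Y-E replicate 6 (adjusted p = 0.0508), and with library size only (adjusted p = 0.0537). It is a member of a family of near-identical genes, and the annotation places an unnamed gene over it on the same strand. DNAJA2, a co-chaperone of HSP70 (chromosome 20, 33387038 to 33399380), rose from 97.3 to 125.7 CPM in Y-E (median 115) to 123.7 to 170.2 CPM in Y-P (median 138), with Y-A overlapping most of the latter range at 113.9 to 158.5 CPM, by 0.33 ± 0.10 (adjusted p = 0.0418). It was higher in 4 of 6 pairs. The call was kept in 6 of 18 leave-one-out fits, those without Y-A replicates 4 and 5, Y-E replicate 4 or Y-P replicates 1, 4 and 6, and lost in the others (adjusted p up to 0.0993), including that without Y-E replicate 6 (adjusted p = 0.0666). HSP90AB1 was at 537 to 744 CPM in Y-E and 677 to 1123 CPM in Y-P, with Y-P replicates 3 and 5 above 1000 CPM. It was not called with TMM (0.41 ± 0.14, adjusted p = 0.0597), and was called higher with library size only (0.53, adjusted p = 0.018). The 14 genes with other symbols gave 0 calls by edgeR in every comparison with all libraries, and without Y-E replicate 6 ZBED5 was called higher in Y-P vs. Y-E.

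Markers of several blood cell types differed between the stages, and their part in the changes above was not tested. The summed level of the 8 reticulocyte markers in the table (of 12 listed) was 612 to 11910 CPM in Y-A, 170 to 266 CPM in Y-E without replicate 6 (5145 CPM) and 100.5 to 189 CPM in Y-P. Of the 8, 6 were called lower in Y-P vs. Y-A, 4 in Y-P vs. Y-E and 0 in Y-E vs. Y-A. The 7 neutrophil markers in the table (of 12 listed) summed to 4514 to 10330 CPM in Y-A, 5879 to 13730 CPM in Y-E and 3540 to 6918 CPM in Y-P, with 4 of 7 lower in Y-P vs. Y-E. The 6 monocyte markers summed to 915 to 1510 CPM in Y-A, 835 to 1833 CPM in Y-E and 584 to 1314 CPM in Y-P, with 1 of 6 lower in Y-P vs. Y-E. The 6 T cell markers rose, from 924 to 1120 CPM in Y-A and 928 to 1105 CPM in Y-E to 1138 to 1871 CPM in Y-P, with 3 and 4 of 6 called. The platelet markers, of which 4 of 5 were tested and GP1BB was at or under 3 counts, fell from 282 to 372 CPM in Y-A and 240.4 to 395 CPM in Y-E to 155 to 209 CPM in Y-P, with 2 of 4 called. The 8 B cell markers summed to 677 to 2097 CPM in Y-A, 578 to 1769 CPM in Y-E and 770.4 to 2276 CPM in Y-P. B cell and plasma cell markers gave 0 calls by edgeR, and the 8 plasma cell markers in the table summed to 293 to 351 CPM in Y-A, 297 to 391 CPM in Y-E and 307 to 403 CPM in Y-P. Of 11 immediate-early genes, 3 were higher against Y-A and 4 against Y-E. Their sums overlapped, at 578.5 to 1210 CPM in Y-A, 895 to 1215 CPM in Y-E and 736 to 4340 CPM in Y-P (median 1155).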

How the data were processed

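The authors deposited a gene table with raw read counts and FPKM for 18 blood libraries. Libraries were poly(A)-selected, dUTP-stranded and read paired-end. The submitters' processing notes name cutadapt 1.9, HISAT2 2.2.1, StringTie 2.1.6, DESeq2 and edgeR. How the deposited counts were made, and with which strand setting, is not given in the sources used here. Coordinates are those of the deposited table. No sequences are analysed here.

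Counts were tested with edgeR 4.0.16 (R 4.3.3; TMM, filterByExpr, quasi-likelihood, stage as the only term, all 18 libraries), with Benjamini-Hochberg adjustment over 14508 genes and a two-sided threshold of 0.05. Errors of fold changes are standard errors. Alternatives used DESeq2 1.42.0 and limma 3.58.1. Levels between genes were compared in deposited FPKM, which are not corrected for composition.

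Genes named singly are 43 core genes of the pathway (40 names, some matched to several genes by orthology entry), all called genes, and the 10 with the highest mean FPKM; others named were chosen after their values were seen. The members and lists were chosen with earlier results of these data known, and roles of genes without a symbol were assigned after the table was seen. Counting limits cover counting error only.

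The study's methods describe the same cows being followed. The fit with a block and the same-numbered pairs took replicate numbers to mark animals, which the labels do not state. How often all pairs point the same way, or stage ranges do not overlap, was not counted over all tested genes. Deviations from the stage means of same-numbered libraries correlated at 0.110 to 0.515 between Y-E and Y-A, −0.0492 to 0.370 between Y-P and Y-A, and −0.0545 to 0.400 between Y-P and Y-E. The fit without a block is given first, and the blocked value where it changes a call or a count. The fit without a block treats libraries of different stages as independent. They may share a cow, and its p-values take no account of this. Were the numbers not to mark animals, the block would not account for it either.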

Additional observations from a re-analysis of the deposited data

Results flagged for a closer look

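For the genes named by rule, 174 groups of 6 libraries were searched for a highest or lowest library that stood apart from the other 5 by Dixon's test, and 14 such libraries were found, 5 of them Y-E replicate 6. Chance alone gives about 1 in 20 groups.

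In Y-E replicate 6 the co-chaperone DNAJC3 was at 91.41 CPM (the others at 56.41 to 65.86), the oxidase ERO1A at 35.06 CPM (16.32 to 21.91), the oligosaccharyltransferase subunits STT3A at 146.7 CPM (114.2 to 123.9) and STT3B at 141.0 CPM (95.17 to 109.3), and MAP2K7 at 83.21 CPM (123.3 to 139.2). The remaining estrus libraries that stood apart were replicate 4 for HERPUD1, at 125.3 CPM (166.3 to 178.2), and replicate 2 for HYOU1, at 100.4 CPM (79.28 to 84.7).

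In anestrus, replicate 5 stood apart for CRYAB at 29.16 CPM (9.498 to 13.83) and for DDIT3 at 64.16 CPM (33.28 to 42.22). Replicate 6 did so for ERO1A at 32.43 CPM (18.12 to 22.94), replicate 4 for ENSBGRG00000024734, with the PDIA6 entry, at 192.0 CPM (139.2 to 156.2), and replicate 1 for P4HB at 447.3 CPM (346.3 to 378.2). In pregnancy, replicate 2 stood apart for DERL2 at 28.79 CPM (38.59 to 43.65) and for ENSBGRG00000019521, with the PPP1R15A entry, at 142.5 CPM (59.89 to 79.32).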

How the results depend on the processing

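In Y-E vs. Y-A 0 genes were called under every setting run. For Y-P vs. Y-A, where 1 gene was higher and 5 were lower, the counts were 10 and 2 with library size only, 3 and 8 with DESeq2, 19 and 2 with limma on log2(FPKM + 1), 19 and 1 on log2(FPKM + 0.1), and 0 and 2 with the fold threshold of 1 on the log2 scale added. For Y-P vs. Y-E, with 7 higher and 8 lower, they were 26 and 4 with library size only, 13 and 10 with DESeq2, 32 and 4 and 30 and 4 with limma, 4 and 8 without a filter on low counts, and 0 and 2 at that fold. Of all 14508 genes, DESeq2 called 669 higher and 820 lower in Y-P vs. Y-A, and 1160 and 1600 in Y-P vs. Y-E. On log2(FPKM + 0.1), limma called 1698 and 230, and 2268 and 663. Without the filter, 649 of 20607 genes were called higher in Y-P vs. Y-E and 1075 lower. No called gene changed sign. RLE size factors and leaving out the hemoglobin genes moved no count by over 1.5 times. Beyond the shift of all genes described with the scalings, the cause of these moves was not tested.

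With the replicate block 8 genes were lower in Y-P vs. Y-A. With the block and without Y-E replicate 6, an alternative chosen after seeing the data, the counts were 1 and 6, and 7 and 11. That fit called 378 and 677, and 842 and 1390, of all 14653 genes it tested.

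Leaving out 1 library gave 1 to 2 higher and 2 to 7 lower genes in Y-P vs. Y-A, and 1 to 9 higher and 5 to 11 lower in Y-P vs. Y-E. Higher genes against Y-A numbered 2 without Y-P replicate 3. Lower genes against Y-A numbered 3 without Y-A replicate 4 or Y-P replicate 3, and 2 without Y-A replicate 5 or Y-P replicates 2, 4 or 5. Higher genes against Y-E numbered 4 without Y-A replicate 1, 3 without Y-P replicates 3 or 5, 2 without Y-E replicates 1, 3 or 5, and 1 without Y-E replicate 2. Lower genes against Y-E numbered 5 without Y-E replicate 5. The calls among all tested genes moved too. In Y-P vs. Y-A, 524 of all tested genes were lower with every library kept. This number was 422 on dropping Y-A replicate 4 and 304 on dropping Y-A replicate 5. Dropping Y-P replicates 2, 3, 4 or 5 gave 251, 351, 307 and 293, in that order. The largest number, 659, came on dropping Y-P replicate 1. Against Y-E, 477 of all tested genes were higher without Y-E replicate 2 and 896 lower without Y-E replicate 5. With all libraries these were 837 and 1259.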
